A study of Mus musculus with 7 samples.

Results

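The 30 genes described here make, sense and move cholesterol in macrophages: 19 enzymes of the mevalonate and sterol pathway, 5 genes that control the SREBP transcription factors, and 6 genes of lipoprotein uptake, sterol transport and sterol storage. They were chosen by gene symbol among the 53379 rows of the deposited count table, and all 30 were found and passed the filter on low counts. Tumours of MC38, a colon carcinoma line of the mouse, grew in C57BL/6J mice on a high-fat diet, and macrophages were taken 21 days after implantation. They were sorted as cells positive for CD45, CD11b and F4/80. The groups were 3 Gpr65 knockout mice and 4 Gpr65 wild-type mice, each with its own library. Gpr65 encodes a receptor that senses extracellular protons. The labels give no allele, breeding scheme, age or sex, and do not name a cell type restriction of the knockout. All mice shared the diet and the tumour, so no lean or tumour-free group was compared.

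Cholesterol is built from acetyl-CoA through mevalonate, farnesyl diphosphate, squalene and lanosterol. When sterols in the endoplasmic reticulum fall, Scap carries the SREBP precursors to the Golgi, where they are cut and released to switch on the enzymes of the pathway, while Insig proteins hold Scap back when sterols are plentiful. Macrophages also take up large amounts of cholesterol from lipoproteins and dying cells, which Npc2 and Npc1 pass out of lysosomes and Soat1 esterifies for storage in droplets.

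The promoters of 4 members are shown, the enzymes Hmgcs1, Cyp51 and Lss and the regulator Insig1. Each holds at least 1 of the sequence motifs counted here. They are the 250 bases before the RefSeq start site, 5′ to 3′ on the strand of the gene. Capitals mark TCACNCCAC, a form of the sterol regulatory element bound by SREBPs, and CCAAT, the box bound by NF-Y, a factor that works beside SREBPs, each on either strand (ATTGG is CCAAT on the other strand).
Hmgcs1 promoter, GRCm38, chr13:119690101-119690350, plus strand: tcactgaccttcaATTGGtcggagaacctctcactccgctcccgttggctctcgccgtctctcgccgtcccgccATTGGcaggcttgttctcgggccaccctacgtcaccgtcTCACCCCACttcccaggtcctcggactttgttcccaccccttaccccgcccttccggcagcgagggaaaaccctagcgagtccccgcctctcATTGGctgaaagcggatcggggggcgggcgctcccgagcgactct
Cyp51 promoter, GRCm38, chr5:4104698-4104947, minus strand: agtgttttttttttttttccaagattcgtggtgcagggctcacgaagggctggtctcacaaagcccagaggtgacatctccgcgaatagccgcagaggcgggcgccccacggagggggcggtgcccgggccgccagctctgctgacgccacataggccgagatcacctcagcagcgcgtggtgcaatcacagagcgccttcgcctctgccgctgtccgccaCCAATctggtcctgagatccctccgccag
Lss promoter, GRCm38, chr10:76531355-76531604, plus strand: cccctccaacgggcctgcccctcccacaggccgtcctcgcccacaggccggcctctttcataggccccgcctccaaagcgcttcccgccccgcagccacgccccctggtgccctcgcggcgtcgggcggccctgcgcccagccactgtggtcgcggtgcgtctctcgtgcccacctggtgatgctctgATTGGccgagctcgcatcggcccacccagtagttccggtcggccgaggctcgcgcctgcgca
Insig1 promoter, GRCm38, chr5:28071162-28071411, plus strand: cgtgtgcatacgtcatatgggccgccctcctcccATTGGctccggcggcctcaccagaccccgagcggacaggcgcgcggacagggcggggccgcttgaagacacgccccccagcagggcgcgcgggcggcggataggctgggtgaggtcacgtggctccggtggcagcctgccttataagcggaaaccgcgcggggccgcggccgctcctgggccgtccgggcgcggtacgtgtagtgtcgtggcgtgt
The Hmgcs1 stretch held 1 TCACNCCAC and 3 CCAAT, and the other 3 stretches held 1 CCAAT each. The RefSeq table (GRCm38.p6) had a promoter window, 250 bases before to 50 after the start, for 25 of the 30 members. In these windows CCAAT occurred in 22 of 25 members (88.0%), with Acat2, Ch25h and Scap without it, and in 11096 of 27025 genes (41.1%). TCACNCCAC occurred in 1 of 25 members (4.0%) and in 388 of 27025 genes (1.44%). Other forms of the sterol regulatory element were not searched for. A match is a description of these letters, not a bound site, and the members were not chosen for it. In the stretches shown the motifs do not overlap each other.

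The libraries held 26253675 to 30483733 counts in knockout mice and 22449772 to 28024612 in wild-type mice. Gpr65 itself measured 0.683, 0.976 and 1.10 CPM (counts scaled to library size and TMM factors) in knockout mice 1 to 3, against 93.4, 112, 92.6 and 65.2 CPM in wild-type mice 1 to 4. All 12 macrophage markers were measured, with a summed level of 25807 to 49464 CPM in knockout and 26393 to 31744 CPM in wild-type mice. Markers of other cells were far lower, with summed levels in knockout and in wild-type mice of 22.8 to 499 and 33.5 to 115 CPM for T cells, 129 to 191 and 144 to 240.1 CPM for neutrophils, 67.4 to 429 and 148 to 378 CPM for fibroblasts, 33.8 to 60.4 and 34.4 to 173 CPM for endothelium, 89.1 to 110.3 and 47.6 to 269 CPM for dendritic cells, 9.63 to 41.5 and 8.44 to 20.8 CPM for B cells, and 42.1 to 168 and 126 to 451 CPM for epithelial markers. Macrophage markers had no gene at 0 in any library. Cldn5 was at 0 in all 7 libraries, and Krt19 and Cldn4 were at 0 in each library except wild-type 4. At an unadjusted p under 0.05, 3 of 8 tested neutrophil, 2 of 3 epithelial, 1 of 8 fibroblast and 1 of 4 endothelial markers were lower in knockout mice, and 1 of 9 T cell and 1 of 9 dendritic cell markers were higher. With the same edgeR test, 5.37% of all tested genes had an unadjusted p under 0.05, and no marker had an adjusted p under 0.05. The part of these other cells in the members' values was not tested. Knockout 1 stood apart on the first principal component of the 500 most variable genes, with a score of 68.5 beside -27.99 to 2.30 for the remaining libraries, and 940 tested genes were at 0 in it, against 51 to 281 in the others.

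No member differed between the genotypes past the threshold. Of 16234 genes tested with edgeR's quasi-likelihood test and Benjamini-Hochberg adjustment, 6 had an adjusted p under 0.05 (0.037%), and none of the 30 members was among them. DESeq2 and limma voom, the latter with a weight for each library, also called 0 members. At an unadjusted p under 0.05, DESeq2 had 1 member (Mylip), against 6.69% of all tested genes, and limma voom had 2 members (Mylip and Srebf1), against 9.84%. With edgeR there was 1 such member, Mylip, of 30 (3.33%), against 5.37% of all tested genes. The groups did not overlap for Mylip, Insig1 and Scap, 3 of 30 members (10%), against 6.12% of all tested genes. Fold changes were above 0 for 15 members and below 0 for 15, against 49.7% above 0 among all tested genes, and the median log2 fold change was 0.004 for the members and -0.002 for all tested genes. In bulk RNA, fewer cells of a type and less RNA per cell cannot be told apart. Since the labels name separate mice, the p-values set the difference between the genotypes against the spread between mice.

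**Figure D1:**
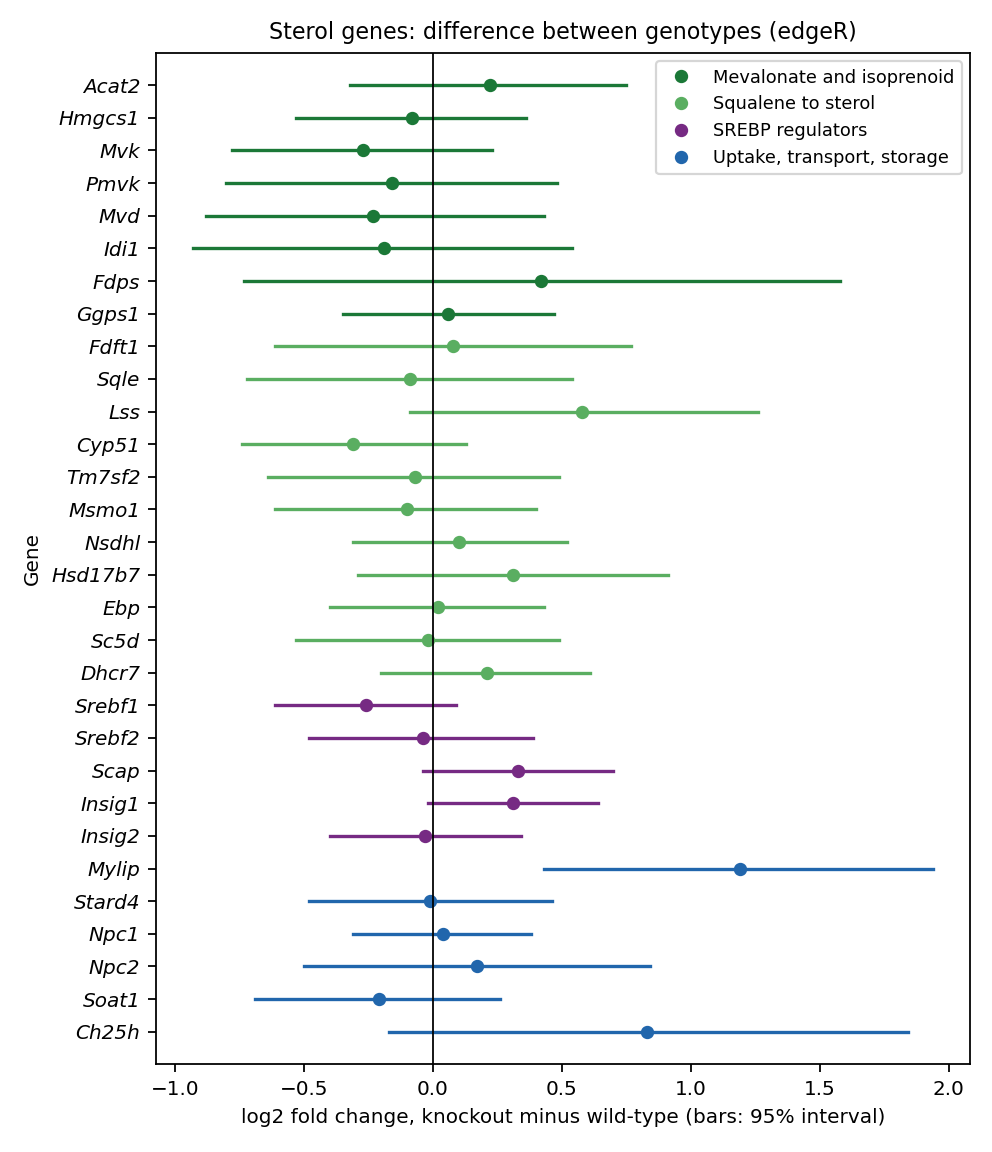
Fitted log2 fold change of each of the 30 genes, knockout minus wild-type (points), with its 95% interval (bars) and colours for the 4 roles. Only the interval of Mylip, 0.43 to 1.94, leaves out 0, and none of these genes passed an adjusted p of 0.05.

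The enzymes from acetoacetyl-CoA to the isoprenoids did not differ past the threshold between the genotypes. Of these 8 genes 3 had a positive and 5 a negative log2 fold change, with a median of -0.123, and all had an edgeR adjusted p of 1.0. Mvd, the mevalonate diphosphate decarboxylase, and Pmvk, the phosphomevalonate kinase, were the highest of the 8 per kilobase of merged exons, with means over the 7 libraries of 25.2 and 23.1 CPM per kilobase. With the longest transcript as the length, Pmvk at 33.1 stood above Mvd at 26.7. Mvd measured 58.5, 25.1 and 44.7 CPM in knockout mice 1 to 3, against 42.6, 63.0, 40.9 and 53.4 CPM in wild-type mice 1 to 4. The lowest and the second highest of its 7 values were both in knockout mice, and the log2 fold change was -0.23 (SE 0.29, 95% interval -0.88 to 0.43). Pmvk measured 34.3, 37.1 and 39.5 CPM in knockout mice, against 25.2, 57.7, 31.8 and 50.8 CPM in wild-type mice. Its knockout values lay within the wild-type range (log2 fold change -0.16, SE 0.28).

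Hmgcs1, which makes HMG-CoA and whose promoter is shown above, measured 74.9, 47.6 and 75.4 CPM in knockout mice, against 77.5, 66.8, 61.2 and 74.4 CPM in wild-type mice. Knockout 2 was the lowest of the 7 and the other knockout mice lay in the wild-type range. Mevalonate kinase, Mvk, averaged 10.7 ± 1.52 CPM (SD, n = 3) in knockout mice, beside 12.9 ± 1.93 CPM (SD, n = 4) in the wild type, with a log2 fold change of -0.27 (SE 0.22). Ggps1, which makes the geranylgeranyl group for protein prenylation, averaged 27.4 ± 3.89 and 26.3 ± 3.28 CPM in knockout and wild-type mice, with a 95% interval of -0.35 to 0.47 for its log2 fold change.

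Several genes of these steps have close copies or overlapping neighbours, and their counts are uncertain. Of the distinct 50-base words in its annotated transcripts, Acat2, the cytosolic thiolase, shared 39.1% with Acat3. The isopentenyl diphosphate isomerase Idi1 shared 25.3%, and the farnesyl diphosphate synthase Fdps shared 26.2%. Fdps had 40 counts in its lowest library and measured 8.34, 1.63 and 4.45 CPM in knockout mice, against 2.79, 4.01, 2.92 and 4.64 CPM in wild-type mice. The knockout mice held both its highest and its lowest value. Acat2 averaged 17.6 ± 1.75 CPM (SD, n = 3) in knockout mice, beside 15.1 ± 3.49 CPM (SD, n = 4) in the wild type, and Idi1 averaged 5.86 ± 2.16 CPM in knockout and 6.70 ± 1.30 CPM in wild-type mice. The sources used here do not say how the counting treated such reads.

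The 11 enzymes from squalene to cholesterol split into 6 with a positive and 5 with a negative log2 fold change, with a median of 0.015. The sterol isomerase Ebp was the highest per kilobase of merged exons, at 32.6 CPM per kilobase, followed by the lanosterol demethylase Cyp51 at 16.9. With the longest transcript as the length, Ebp was at 43.2, Msmo1 at 36.0 and Sqle at 23.2 CPM per kilobase, above Cyp51 at 19. Ebp measured 88.2, 78.4 and 60.5 CPM in knockout mice, against 61.4, 84.6, 75.2 and 78.5 CPM in wild-type mice. The groups overlapped throughout (log2 fold change 0.02, SE 0.18, 95% interval -0.40 to 0.43). Cyp51 measured 76.4, 47.9 and 73.0 CPM in knockout mice, against 87.5, 83.8, 70.2 and 83.7 CPM in wild-type mice. Knockout 2 was the lowest, and the log2 fold change of -0.31 (SE 0.19, edgeR adjusted p = 1.0) was the most negative of the 19 enzymes.

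Lanosterol synthase, Lss, which closes the sterol rings, had the most positive fold change of the enzymes. It measured 36.2, 16.7 and 19.4 CPM in knockout mice, against 15, 13.2, 21.0 and 15.1 CPM in wild-type mice. Knockout 1 alone lay above the wild-type range. On the log2 scale it differed by 0.58 (SE 0.30, 95% interval -0.09 to 1.26, edgeR adjusted p = 0.98), which was 0.153 without knockout 1.

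The squalene-forming enzyme Fdft1 measured 29.3, 11.3 and 17.7 CPM in knockout mice, against 18.5, 19.3, 15.4 and 20.5 CPM in wild-type mice. Fdft1 shares 774 exonic bases with the strand opposite of Ctsb, a cathepsin gene with 744898 counts over all libraries against 3584 for Fdft1, so part of its count may be Ctsb reads if strand was not used. Squalene epoxidase, Sqle, an oxygen-using step, measured 87.8, 38.8 and 58.6 CPM in knockout mice, against 82.5, 51.4, 68.9 and 60.1 CPM in wild-type mice. For both genes knockout 1 was the highest and knockout 2 the lowest of the 7 libraries. Msmo1, which removes methyl groups from the sterol nucleus, gave 92.0, 54.6 and 65.4 CPM in knockout mice, against 77.0, 81.5, 57.0 and 88.0 CPM in wild-type mice, with the same extremes.

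The remaining sterol enzymes also overlapped between the genotypes. The sterol desaturase Sc5d averaged 37.8 ± 13.1 CPM (SD, n = 3) in knockout mice, beside 38.3 ± 3.28 CPM (SD, n = 4) in the wild type, and Hsd17b7, a sterol ketoreductase, averaged 13.8 ± 3.70 CPM in knockout and 11.1 ± 2.26 CPM in wild-type mice. Dhcr7, the reductase of a last step, averaged 33.1 ± 6.11 CPM in knockout and 28.7 ± 2.64 CPM in wild-type mice. Nsdhl, a sterol dehydrogenase, averaged 16.9 ± 1.39 CPM in knockout and 15.7 ± 1.62 CPM in wild-type mice, and the sterol reductase Tm7sf2 9.12 ± 1.94 and 9.60 ± 1.54 CPM. None of these differences passed the threshold. Their log2 fold changes lay between -0.07 for Tm7sf2 and 0.31 for Hsd17b7. Tm7sf2 shares 532 exonic bases on the same strand with Vps51, so its count is uncertain. Vps51 had 12978 counts over all libraries, against 1770 for Tm7sf2.

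The enzymes were spread more widely among the knockout mice than among the wild-type mice. The median SD of log2 CPM over the 19 enzymes was 0.38 in knockout and 0.22 in wild-type mice, and 0.41 and 0.35 over all tested genes. The knockout SD was the larger for 15 of 19 enzymes (78.9%), against 60.1% of all tested genes. Some other lists showed this too, and some did not. The SD of the list mean of log2 CPM was 0.29 in knockout and 0.0624 in wild-type mice for the enzymes, 0.375 and 0.116 for other sterol transport genes, 0.738 and 0.152 for oxysterol and LXR genes, and 0.374 and 0.128 for macrophage markers. It was smaller in knockout mice for cell cycle genes (0.443 and 0.545) and dendritic cell markers (0.429 and 0.68). The same held for epithelial (0.394 and 0.76), neutrophil (1.04 and 1.08) and endothelial markers (0.197 and 0.203). Knockout 1 was the highest of the 7 libraries for 10 of 19 enzymes (52.6%) and knockout 2 the lowest for 10 of 19 (52.6%), where these libraries were highest and lowest for 21.3% and 12.7% of all tested genes. Knockout 1 exceeded knockout 2 for 15 of 19 enzymes (78.9%), against 47.1% of all tested genes, by a median of 0.67 on the log2 scale, against a median of -0.05 over all tested genes. For 7 enzymes, Idi1, Fdps, Fdft1, Sqle, Msmo1, Ebp and Sc5d, knockout values lay both above and below all wild-type values (36.8%, against 22.1% of all tested genes). The mean log2 CPM of the 19 enzymes was 4.89, 4.31 and 4.62 in knockout mice 1 to 3, against 4.60, 4.63, 4.54 and 4.69 in wild-type mice 1 to 4. The 4 wild-type mice lay close together and knockout 3 among them, while knockout 1 lay above and knockout 2 below all others. Scaled by library size alone, knockout 1 was highest for 12 enzymes and knockout 2 lowest for 12, beside 30% and 32.8% of all tested genes. These counts describe single libraries and have no test.

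**Figure D2:**
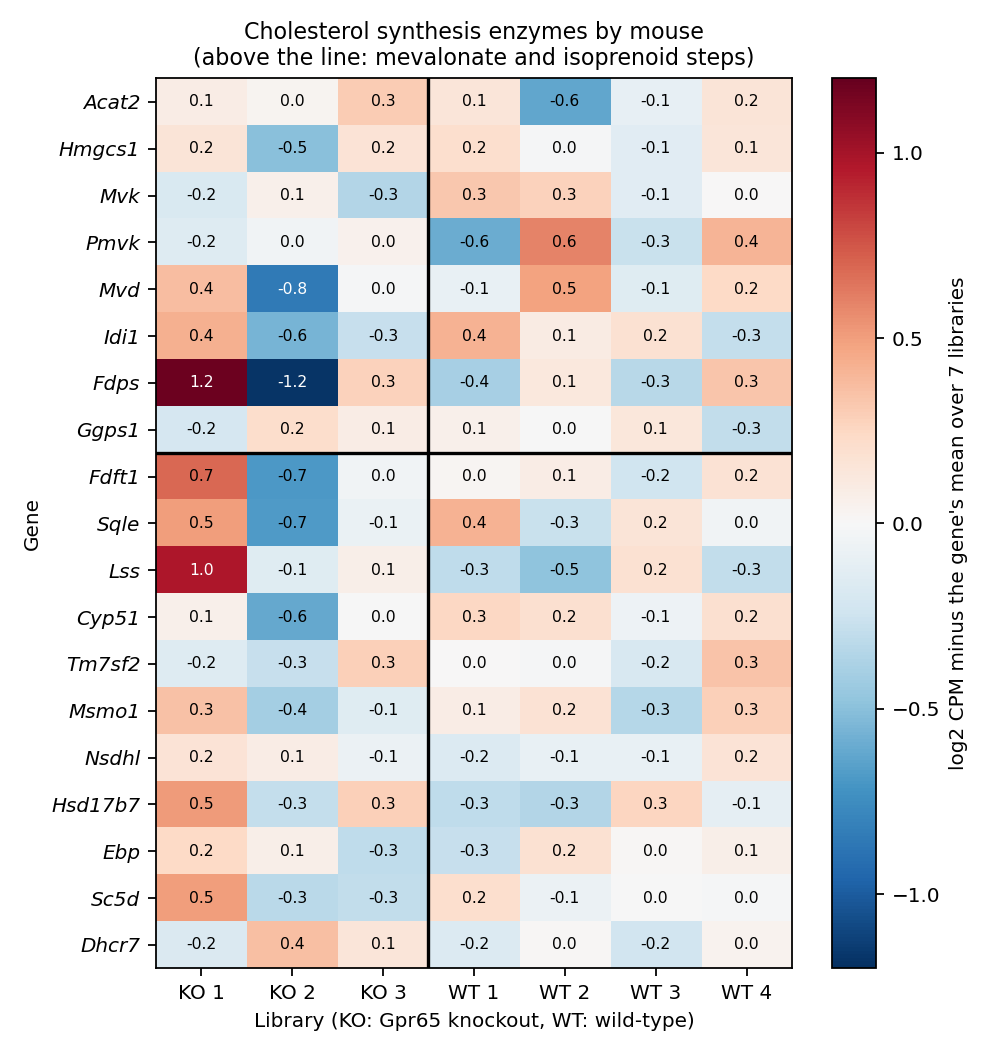
Log2 CPM of each of the 19 enzymes in each library, as the difference from the gene's mean over the 7 libraries, with knockout mice left of the upright line and wild-type mice right of it. Red is above and blue below the mean, and the knockout 1 column is mostly red and the knockout 2 column mostly blue.

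Without knockout 1 the median log2 fold change of the enzymes was -0.195, and without knockout 2 it was 0.07, beside -0.017 with all libraries. The order of the libraries was set beside other gene lists. Of 14 fatty acid genes controlled by SREBPs, the mean log2 CPM was 5.07, 4.23 and 4.32 in knockout mice 1 to 3, against 4.60, 4.03, 4.65 and 4.39 in wild-type mice. On this mean, knockout 1 was again the highest, but the lowest was wild-type 2. The 18 cell cycle genes had 6.31, 5.49 and 5.61 in knockout mice, against 6.44, 5.14, 6.03 and 5.98 in wild-type mice. Wild-type 1 was the highest for these and wild-type 2 the lowest, while their enzyme means were 4.60 and 4.63. Among the knockout mice alone, mean log2 CPM put the fatty acid and the cell cycle genes both in the order of the enzymes. That order was knockout 1 highest and knockout 2 lowest. The summed CPM of the fatty acid genes was 797, 787 and 843 in knockout mice, against 877, 677, 856 and 744 in wild-type mice. On that measure wild-type 1 was the highest of all and knockout 3 the highest knockout. Of the 18 cell cycle genes 7 had positive and 11 negative fold changes, with a median of -0.05 and none at an unadjusted p under 0.05. The best expressed were the replication factor Mcm3, with 173 ± 15.9 CPM in knockout and 162 ± 61.2 CPM in wild-type mice, and the topoisomerase Top2a, with 164 ± 62.4 CPM in knockout and 167 ± 72.4 CPM in wild-type mice. The summed fibroblast markers were 429, 174 and 67.4 CPM in knockout mice 1 to 3, and the summed T cell markers 22.8, 71.0 and 499 CPM. The summed macrophage markers were 25807, 49464 and 31519 CPM in knockout mice 1 to 3, against 31598, 31744, 26439 and 26393 CPM in wild-type mice 1 to 4. Knockout 2, lowest in the enzymes, was the highest of the 7 libraries in macrophage markers, and the 3 knockout mice stood in the reverse of their enzyme order. The part of other cells, of the cell cycle, of the macrophage markers and of the general divergence of knockout 1 in the enzyme values was not tested.

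**Figure D3:**
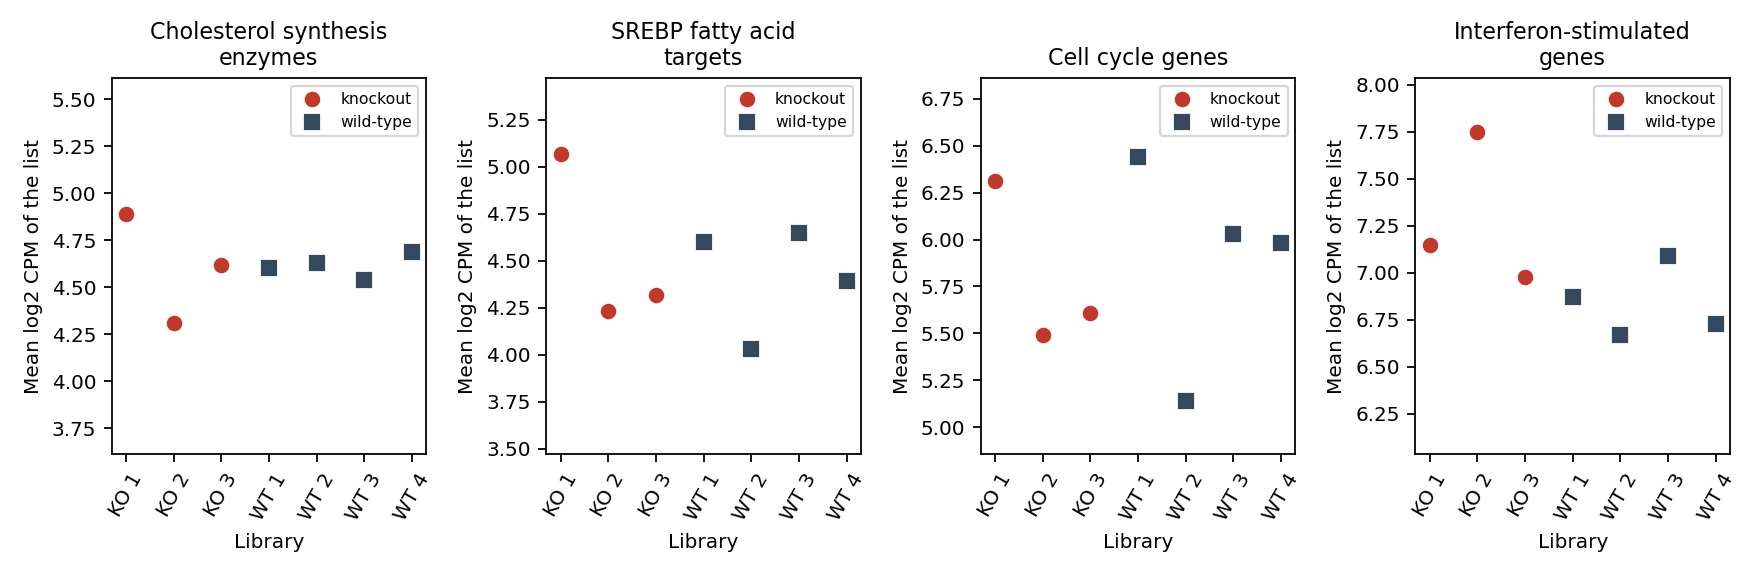
Mean log2 CPM of 4 gene lists in each library, knockout mice as circles and wild-type mice as squares, each panel spanning the same range of log2 units. For the cholesterol synthesis enzymes the wild-type mice lie between 4.54 and 4.69, with knockout 1 at 4.89 above and knockout 2 at 4.31 below them.

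Among the regulators, the genes for the SREBP precursors did not differ past the threshold. Srebf2 (chromosome 15, 82147181 to 82205379, GRCm38), whose product is the main activator of cholesterol synthesis, measured 150.0, 121 and 131 CPM in knockout mice, against 146, 113, 175 and 118 CPM in wild-type mice. The knockout values lay within the wild-type range (log2 fold change -0.04, SE 0.19, 95% interval -0.48 to 0.39). Srebf1 (chromosome 11, 60199089 to 60222581), whose products mainly drive fatty acid synthesis, measured 110.5, 86.9 and 87.7 CPM in knockout mice, against 112, 104, 112 and 127 CPM in wild-type mice. Knockout mice 2 and 3 lay below all wild-type mice and knockout 1 among them, with a log2 fold change of -0.26 (SE 0.16, edgeR adjusted p = 1.0). The count does not tell the isoforms of Srebf1 apart.

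Insig1 and Scap had higher TMM-scaled CPM in each knockout mouse than in any wild-type mouse, without passing the threshold. Insig1 (chromosome 5, 28071363 to 28078662), an endoplasmic reticulum anchor and itself an SREBP target, measured 78.0, 65.3 and 74.7 CPM in knockout mice, against 55.2, 60.4, 63.9 and 54.9 CPM in wild-type mice. The lowest knockout value lay just above the highest wild-type value. The log2 fold change was 0.31 (SE 0.14, 95% interval -0.02 to 0.64, edgeR adjusted p = 0.95). Scap (chromosome 9, 110333288 to 110384950) measured 49.6, 53.7 and 49.4 CPM in knockout mice, against 41.6, 33.1, 47.1 and 40.0 CPM in wild-type mice. Here too the groups came close, and the log2 fold change was 0.33 (SE 0.16, 95% interval -0.04 to 0.70, edgeR adjusted p = 0.98). Both genes overlapped between the groups when libraries were scaled by their size alone, and then 2 members, Mylip and Soat1, did not overlap, beside 6.66% of all tested genes. Of the Scap transcripts' words 9.96% were shared with an antisense model with 42 counts over all libraries.

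Insig2, the other anchor, measured 31.9, 24.0 and 28.6 CPM in knockout mice, against 27.2, 28.6, 27.6 and 31.3 CPM in wild-type mice, with a log2 fold change of -0.03 (SE 0.16, 95% interval -0.40 to 0.34). The difference between the fold changes of Insig1 and Insig2 was not tested. Per kilobase of merged exons, Insig1 averaged 23.5 CPM in knockout and 19 CPM in wild-type mice, and Insig2 8.11 and 8.26 CPM. Insig1 was also the highest regulator on that scale at 20.9 CPM per kilobase over all libraries, followed by Srebf2 at 19 and Srebf1 at 18.8, and Srebf2 was the highest, at 26.8, when the longest transcript was used as the length.

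**Figure D4:**
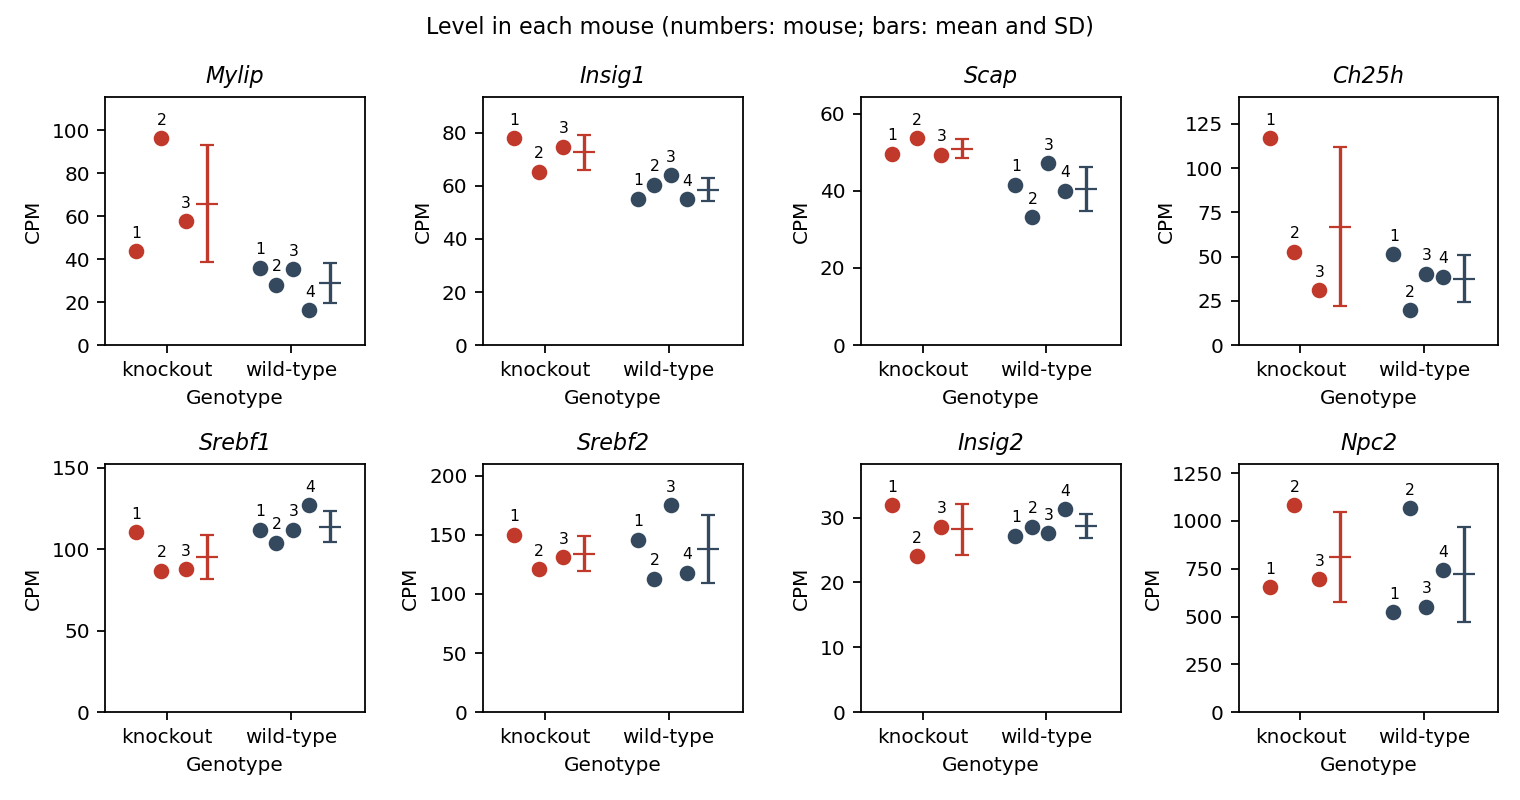
CPM of 8 genes in each knockout and each wild-type mouse (points, with mouse numbers), with the mean and SD of each genotype (bars), each panel on its own scale from 0. On TMM-scaled CPM, Mylip, Insig1 and Scap lie higher in each knockout mouse, while Ch25h and Npc2 overlap between the genotypes.

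Mylip had the largest fold change of the members. Mylip (chromosome 13, 45389742 to 45412022) encodes a ubiquitin ligase that limits lipoprotein uptake and is induced by the oxysterol-sensing LXR factors. It measured 43.7, 96.4 and 57.6 CPM in knockout mice, against 36.0, 28.1, 35.3 and 16.3 CPM in wild-type mice. The groups did not overlap, with knockout 2 the highest and knockout 1 near the highest wild-type mice. The fold was 2.28 (95% interval 1.35 to 3.84), with a log2 fold change of 1.19 (SE 0.33), an unadjusted p of 0.0061 and an edgeR adjusted p of 0.74. Its adjusted p was 0.087 by DESeq2 and 0.22 by limma voom. The log2 fold change was 0.805 without knockout 2 and 1.397 without knockout 1.

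Of 9 listed genes of oxysterol metabolism and LXR signalling, 8 were tested, with 6 positive and 2 negative fold changes and a median of 0.256, and none passed. Abcg1, a sterol exporter and LXR target, measured 49.2, 138 and 104 CPM in knockout mice, against 44.9, 67.5, 59.2 and 44.9 CPM in wild-type mice. Knockout mice 2 and 3 lay above all wild-type mice, as for Mylip, whereas knockout 1 lay among them (log2 fold change 0.84, SE 0.32, edgeR adjusted p = 0.91). Cyp7b1, an oxysterol hydroxylase, had few reads, at 0, 0 and 0.147 CPM in knockout mice and 0.208, 0.579, 0.796 and 0.621 CPM in wild-type mice, which is 0 to 24 counts.

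Ch25h (chromosome 19, 34473778 to 34475164), the hydroxylase that makes an antiviral oxysterol and is known as an interferon-induced gene, had the widest range over the 7 libraries, with a highest value 5.91 times its lowest, beside 5.90 times for Mylip. It measured 117, 52.8 and 31.2 CPM in knockout mice, against 51.5, 19.7, 40.3 and 38.6 CPM in wild-type mice. Knockout 1 was highest by a wide margin and knockout 3 lay inside the wild-type range, giving a log2 fold change of 0.83 (SE 0.44, edgeR adjusted p = 0.99) that was 0.151 without knockout 1. The mean log2 CPM of 20 interferon-stimulated genes was 7.15, 7.75 and 6.98 in knockout mice, against 6.87, 6.67, 7.09 and 6.73 in wild-type mice, so that the library highest in Ch25h was not the highest in these genes. All 20 had positive fold changes, with a median of 0.415, and 5 (25%) had an unadjusted p under 0.05, against 49.7% and 5.37% of all tested genes, but none passed the adjusted threshold. The antiviral factor Xaf1 averaged 96.9 ± 45.3 CPM (n = 3) in knockout mice and 41.8 ± 8.83 CPM (n = 4) in the wild type, a log2 fold change of 1.21 (SE 0.30) with an edgeR adjusted p of 0.66. The log2 fold changes were 0.84 (SE 0.23) for Oasl1, 1.02 (SE 0.32) for Ifi44 and 0.56 (SE 0.23) for the RNA sensor Ifih1. Ch25h shares 8.22% of its words with an opposite-strand transcript that had 438 counts over all libraries, beside 9580 for Ch25h.

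Npc2 (chromosome 12, 84754562 to 84773152), the soluble lysosomal sterol carrier, was the highest member per kilobase, at 140.0 CPM per kilobase of merged exons, followed by Ch25h at 36.1. With the longest transcript as the length, Npc2 was at 230.0 CPM per kilobase, and Ebp at 43.2 stood above Ch25h at 36.1. Npc2 measured 655, 1082 and 696 CPM in knockout mice, against 524, 1066, 552 and 742 CPM in wild-type mice. Knockout 2 and wild-type 2 stood above the other mice of their genotype, and the log2 fold change was 0.17 (SE 0.30). Its membrane partner Npc1 averaged 72.2 ± 9.83 CPM (SD, n = 3) in knockout mice, beside 70.3 ± 5.07 CPM (SD, n = 4) in the wild type, with a 95% interval of -0.31 to 0.38 for the log2 fold change. Stard4, a cytosolic sterol carrier, averaged 27.0 ± 6.24 CPM in knockout and 27.1 ± 3.88 CPM in wild-type mice.

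Soat1, which esterifies cholesterol, measured 151, 277 and 208 CPM in knockout mice, against 263, 250.1, 246 and 224 CPM in wild-type mice. Knockout 1 was the lowest and knockout 2 the highest of the 7 libraries, the reverse of the 6 enzymes Idi1, Fdps, Fdft1, Sqle, Msmo1 and Sc5d. Its log2 fold change, -0.21 (SE 0.21), had an edgeR adjusted p of 1.0.

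Genes that act beside the members were read from lists of the same pathways. Of 14 genes of SREBP cleavage and sterol-regulated protein degradation, 13 were matched and tested, with 9 positive and 4 negative fold changes and a median of 0.132, and none passed. Erlin2, an endoplasmic reticulum scaffold of sterol-regulated degradation, measured 37.9, 48.0 and 46.0 CPM in knockout mice, against 63.1, 57.5, 61 and 73.7 CPM in wild-type mice. All 3 knockout values were lower than all 4 wild-type values (log2 fold change -0.54, SE 0.16, unadjusted p = 0.0093, edgeR adjusted p = 0.78). The ubiquitin ligase Rnf139 measured 35.8, 46.8 and 39.8 CPM in knockout mice, against 32.7, 27.3, 34.1 and 28.8 CPM in wild-type mice. Its groups did not overlap in the other direction, with a log2 fold change of 0.41 (SE 0.17, edgeR adjusted p = 0.92).

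Of 21 other sterol transport genes 20 were tested, with 9 positive and 11 negative fold changes and a median of -0.045. Lipa, the lysosomal acid lipase that frees cholesterol from lipoprotein esters, measured 130.1, 239 and 173 CPM in knockout mice, against 146, 111, 127 and 122 CPM in wild-type mice. Knockout 2 and knockout 3 lay above all wild-type mice (log2 fold change 0.52, SE 0.22, edgeR adjusted p = 0.92). Among 14 genes that use farnesyl and geranylgeranyl groups, 10 fold changes were positive and 4 negative, with a median of 0.095 and none at an unadjusted p under 0.05. The best expressed were Rabggta, a subunit of a Rab prenyltransferase, with 67.1 ± 4.08 CPM (SD, n = 3) in knockout mice, beside 62.0 ± 4.46 CPM (SD, n = 4) in the wild type, and Nus1, of dolichol synthesis, with 61.4 ± 3.81 CPM in knockout and 64.3 ± 11.2 CPM in wild-type mice.

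The 14 SREBP-controlled fatty acid genes had 9 positive and 5 negative fold changes, with a median of 0.1 and none past the threshold. Acsl1, which activates long-chain fatty acids, measured 29.9, 176 and 122 CPM in knockout mice, against 35.6, 38.5, 42.0 and 22.3 CPM in wild-type mice. Knockout mice 2 and 3 were far above the rest and knockout 1 among the wild-type mice (log2 fold change 1.66, SE 0.49, edgeR adjusted p = 0.76). Acss2, the cytosolic acetyl-CoA synthetase, measured 12.2, 4.68 and 4.89 CPM in knockout mice, against 4.24, 2.24, 3.32 and 3.25 CPM in wild-type mice. Knockout 1 was the highest and the groups did not overlap (log2 fold change 1.15, SE 0.42, edgeR adjusted p = 0.85).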

How the data were processed

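Read counts per gene were measured in 7 libraries of sorted tumour macrophages. The authors deposited whole-number counts that were not normalized. The labels' protocols give a Takara SMART-seq kit and polyA RNA. The submitters' processing notes name DESeq2 1.24.0, BWA 0.7.12, FastQC 0.11.5 and cutadapt 1.15, and the build GRCm38. The counting program and any use of strand were not given in the sources used here. Overlapping genes, of opposite strands or of the same strand, may share reads.

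Identifiers were matched to GENCODE M21, 53274 of 53379 (99.8%). Rows without a symbol held 0.000338% of counts and kept their identifier. edgeR 4.0.16 under R 4.3.3 fitted genotype to all 7 libraries with TMM scaling, the default low-count filter, robust quasi-likelihood F tests and Benjamini-Hochberg adjustment over 16234 genes. The fit was tested on simulated data. Values are TMM-scaled CPM, and a prior count of 2 was added for log2 CPM. Each SE is the absolute log2 fold change over the root of its F statistic. Levels between genes are per kilobase of merged exons. No 2 libraries of a group agreed within sampling noise.

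The members and lists were chosen with earlier results of these data known. All members are given. In other lists, up to 4 genes with the smallest unadjusted p under 0.05 are named, or otherwise the 2 highest. One listed gene, Marchf6, was not matched by symbol. Alternatives were other scalings and filters, DESeq2 1.42.0, limma 3.58.1 voom with library weights, non-robust edgeR, and an adjusted p of 0.1. Each library was also left out in turn, and mouse number was used as a replicate block. After the data were seen, the longest transcript was added as a length and library order was read under 2 other scalings. Each member had at least 40 counts in each library.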

Additional observations from a re-analysis of the deposited data

How the results depend on the processing

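No member was called in any of the 16 alternatives tried for each, and 13 of the 30 kept the sign of their fold change in all of them, Mylip, Insig1, Scap and Srebf1 among them. Over these alternatives the log2 fold change of Mylip ranged between 0.805 and 1.397, with an adjusted p of 0.087 to 1.0. The number of genes called among all tested was 6, but 114 with DESeq2, 10 with limma voom, 11 without a filter on low counts and 1 with the mouse number as a replicate block. Leaving out 1 library gave 3 (without knockout 2) to 14 (without knockout 1) called genes and an enzyme median of -0.195 to 0.07. The move without knockout 1 was about as large as the SD of 0.175 between mice averaged over the genotypes, and smaller than the knockout SD of 0.29. The cause of these changes was not tested. Scaling by library size alone moved the median log2 fold change of all tested genes to -0.108 and that of the enzymes to -0.081. Mice with the same number in both genotypes did not deviate together (correlations of 0.066, 0.051 and 0.088), so the numbers were not taken as pairs, and the block called 0 members. At an unadjusted p under 0.05, beside Mylip, Srebf1 was added by voom (9.84% of all tested genes) and without knockout 1 (9.8%), Insig1, Lss and Soat1 without knockout 2 (4.35%), Ch25h without knockout 3 (5.85%) and Scap without wild-type 3 (4.54%). Among 31 sets of wild-type values no mouse stood out by Dixon's criterion, which was not applied to groups of 3. With 3 against 4 mice and a biological coefficient of variation of 42.9%, the intervals of the members' log2 fold changes remain wide, up to -0.73 to 1.58 for Fdps.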
